A study of Mus musculus with 9 samples.

Results

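Cadherins hold neighbouring cells together, and this set of genes was compared by transcript level across 9 cultures of mouse embryonic stem (ES) cells. It comprised every gene of the deposited table whose symbol is Cdh or Pcdh followed by a number alone. The rule reads names and no measured value, but the genes were chosen with earlier results of these data known. By this rule 24 cadherins and 13 nonclustered protocadherins, 37 genes in all, were taken from the 33495 genes listed. Of these, 17 reached at least 1 CPM (the count scaled to library size) in at least 3 of the 9 libraries and were tested (10 cadherins and 7 protocadherins). The other 20 fell below this filter and are described by their levels, apart from calls in a fit without the filter.

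RF8 mouse ES cells had been transfected with 1 of 3 constructs. L122A cells received Nanog, a homeodomain transcription factor of pluripotent cells, carrying the L122A change, which the series title places among homeodomain (HD) mutants. WT cells received wild-type Nanog, and EGFP cells received enhanced green fluorescent protein. Each transfectant was grown in 3 cultures: with 5 µM retinoic acid (RA) and no leukaemia inhibitory factor (LIF); without LIF and without RA; and with 1000 units of LIF per ml, the routine culture, which also held fetal calf serum and puromycin. RA drives ES cells to differentiate, and LIF is a cytokine that sustains their self-renewal. There was 1 library for each of the 9 combinations, named here by the transfectant and culture on its label (L122A RA, WT no-LIF, EGFP LIF and so on). No combination had a replicate, and the labels name no independently derived lines of a construct. How long each culture lasted is not given. The columns of the LIF libraries were assigned by elimination, since their names are in no label.

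Classical cadherins are calcium-dependent adhesion proteins whose extracellular repeats bind the same cadherin on the next cell. Their tails bind p120-catenin and beta-catenin, and through beta-catenin they are linked to actin. Type I members include E-cadherin (Cdh1), the main adhesion molecule of ES cells and early epithelia, and N-cadherin (Cdh2), which replaces E-cadherin in mesoderm and neural tissue as these leave the epiblast. Type II members, such as Cdh6 and Cdh11, mark mesenchyme and subsets of neurons, and protocadherins of the delta family are adhesion molecules best known from the nervous system.

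Total counts lay between 24166395 (L122A LIF) and 28714988 (EGFP RA) per library. The transfected gene, Nanog, stood at 258.5, 194.6 and 0.871 CPM in the L122A, WT and EGFP RA libraries, at 129.9, 168.1 and 290.3 CPM in the no-LIF libraries and at 239.1, 222.5 and 384 CPM in the LIF libraries. In both cultures without RA the libraries labelled with a Nanog construct held less Nanog than those labelled EGFP, and with RA they held more. The total level thus went with these labels in the RA cultures alone, and transfectant names below stand for labels. Transcripts of the construct and of the cells' own gene are not told apart in these counts. The labelled cell type was checked with 6 ES cell markers (Pou5f1, Zfp42, Esrrb, Dppa5a, Fgf4 and Tdgf1). Their summed level was 500.3, 104.8 and 12.3 CPM in the L122A, WT and EGFP RA libraries, against 1779 to 5066 CPM in the 6 libraries without RA. All 6 markers were at 1 CPM or more in those 6 libraries and in L122A RA, 5 were in WT RA and 3 in EGFP RA. In bulk RNA, fewer cells of a type and less RNA per cell cannot be told apart.

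N-cadherin, 4 of the 5 tested type II cadherins and the 6 tested delta protocadherins were called higher in RA than in LIF cultures. E-cadherin stood higher with RA than with LIF in L122A and WT cells and lower in EGFP cells. Against no-LIF, E-cadherin was higher with RA in L122A cells alone. With culture and transfectant as additive factors in edgeR's quasi-likelihood test, 11 of the 17 tested genes were higher with RA than with LIF at a Benjamini-Hochberg adjusted p below 0.05 and 0 were lower; without WT LIF 7 were called, and without EGFP RA 11 higher and 1 lower (Cdh3). The background was high, since 24.5% of all 13996 genes tested were called higher and 23.8% lower. The median log2 fold change was 2.50 over the 17 genes and 0.01 over all genes tested. One of the 17, Cdh6, reached 1 CPM in RA libraries alone. Pcdh7, Pcdh8, Pcdh17, Pcdh18 and Pcdh19 reached it in only 1 or 2 libraries without RA, as did Cdh4 and Cdh23. All of these needed RA libraries to meet the filter of 3, so those called passed it through the group in which they were high. The 11 calls and the median of 2.50 are thus not independent of the filter. Against the no-LIF cultures, 8 of the 17 were higher with RA (background 22.6%) and 0 were lower (background 21.9%); 4 were called higher without WT no-LIF, and 5 without WT RA or L122A no-LIF. Without L122A RA 5 were higher and 2 lower (Cdh1 and Cdh9), and without EGFP RA 6 were higher and 1 lower (Cdh3). The model has no replicate cultures, so its p-values ask whether a difference repeated over the 3 transfectants, and its standard errors (SE) measure the departure from additivity.

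**Figure D1:**
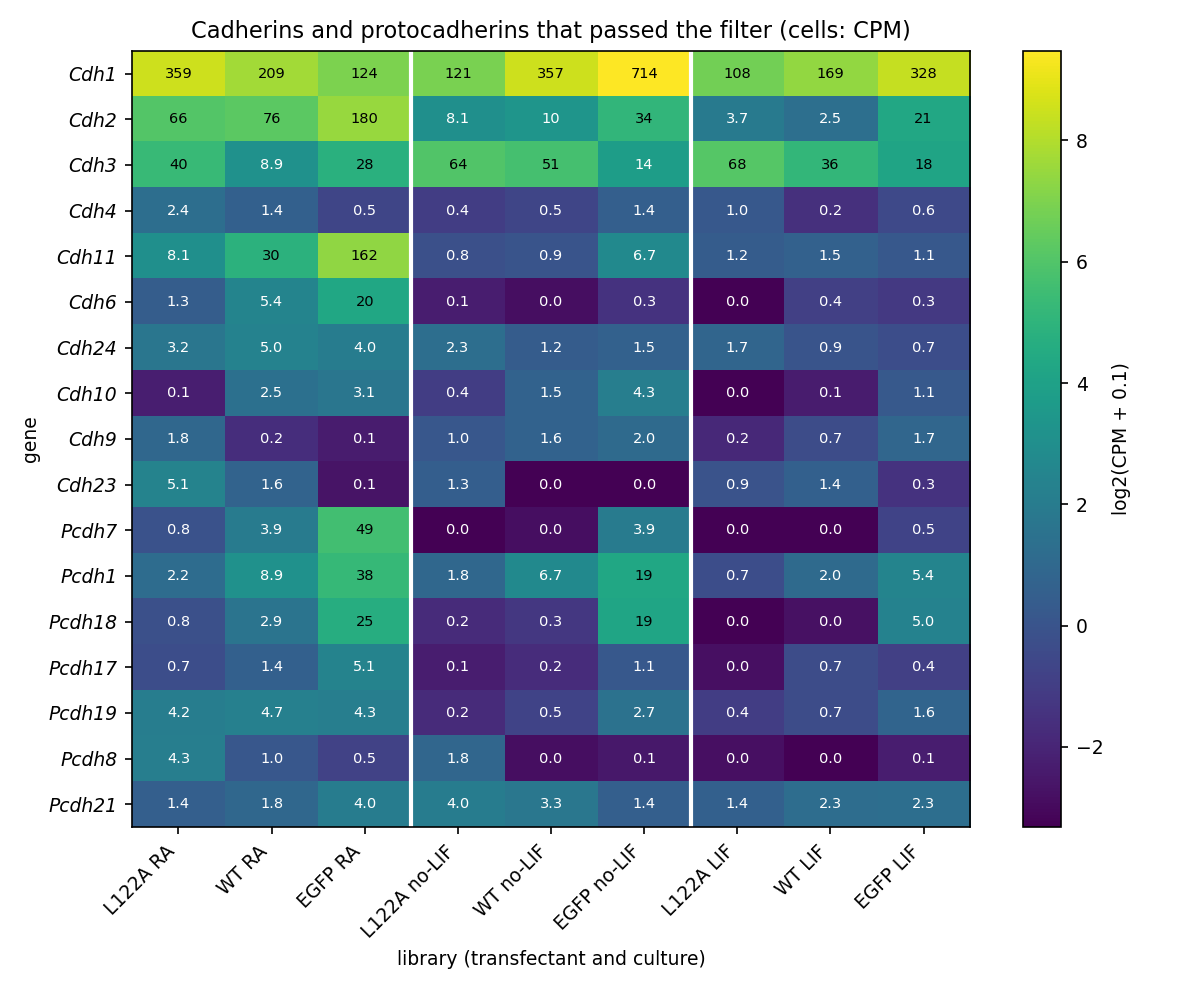
Level of the 17 tested genes (rows) in the 9 libraries (columns), with CPM printed in each cell and log2(CPM + 0.1) as colour; white lines part the RA, no-LIF and LIF cultures. Cdh1 is at 108 to 714 CPM in every library, and the EGFP RA library holds the highest level of 8 of the 17 genes.

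E-cadherin (Cdh1, ENSMUSG00000000303, mm9 chromosome 8, 109127250 to 109194146, plus strand) had the highest FPKM (the authors' level per gene length) of the 37 genes in 8 of the 9 libraries. Cdh1 stood at 359, 209 and 124 CPM in the L122A, WT and EGFP RA libraries, against 121, 357 and 714 CPM in the no-LIF libraries and 108, 169 and 328 CPM in the LIF libraries. The transfectants were thus in reverse order with RA, L122A being highest there and lowest in the other 2 cultures. Within L122A cells, RA over LIF was 3.33-fold (95% Poisson interval 3.19 to 3.48, counting error only), within WT cells 1.24-fold (1.19 to 1.29), and within EGFP cells Cdh1 was 2.64-fold lower with RA (2.55 to 2.74). Against no-LIF, EGFP RA was 5.75-fold lower (5.56 to 5.95). WT RA also lay below WT no-LIF (209 against 357 CPM), whereas L122A RA lay above L122A no-LIF (359 against 121 CPM).

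Over the transfectants the log2 fold change of Cdh1 was 0.50 (SE 0.66, adjusted p = 0.558) for RA against LIF. It was -0.62 without L122A RA and passed the test without EGFP RA (1.21, adjusted p = 0.0457). Against no-LIF it was -0.42 (SE 0.68, adjusted p = 0.64), 0.36 without EGFP RA, 0.04 without EGFP no-LIF, 0.02 with total-count scaling, and -1.42 without L122A RA (adjusted p = 0.0453). The response of the libraries labelled WT and L122A, taken as a Nanog class, minus that of EGFP was 2.44 for RA minus LIF (SE 0.94, unadjusted p = 0.0392, adjusted p = 0.431) and 2.77 for RA minus no-LIF (SE 0.95, unadjusted p = 0.0246, adjusted p = 0.444), so the difference in response did not pass. EGFP had 1 library per culture in that test. Without a filter on low counts both differences passed (2.50, adjusted p = 5.03e-07, and 2.82, adjusted p = 9.89e-09), and DESeq2 called the one against no-LIF (2.75, adjusted p = 0.0394).

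N-cadherin (Cdh2, ENSMUSG00000024304, mm9 chromosome 18, 16747385 to 16967759, minus strand) rose with RA. Cdh2 stood at 65.6, 76.4 and 179.6 CPM in the L122A, WT and EGFP RA libraries, against 8.10, 10.3 and 33.9 CPM in the no-LIF libraries and 3.70, 2.46 and 20.6 CPM in the LIF libraries. Every RA library lay above every library without RA, and within each culture EGFP was highest. The log2 fold change was 4.01 against LIF (SE 0.35, adjusted p = 0.000278) and 2.80 against no-LIF (SE 0.32, adjusted p = 0.000699), and both calls held in every leave-one-out fit. Within transfectants RA over LIF was 17.7-fold in L122A (95% Poisson interval 14.2 to 22.4), 31.1-fold in WT (23.5 to 42.0) and 8.72-fold in EGFP (8.02 to 9.48). The response of the Nanog class minus that of EGFP was 1.40 on the log2 scale (SE 0.45, unadjusted p = 0.0121, adjusted p = 0.347).

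P-cadherin (Cdh3, ENSMUSG00000061048, mm9 chromosome 8, 109034790 to 109080792, plus strand), a cadherin of basal epithelium and placenta that lies next to Cdh1 on the same strand, went another way. Cdh3 stood at 39.7, 8.88 and 28.1 CPM in the L122A, WT and EGFP RA libraries, against 64.3, 51.2 and 13.7 CPM in the no-LIF libraries and 68.2, 35.6 and 18.0 CPM in the LIF libraries. In cultures without RA the L122A and WT libraries lay above EGFP. Within WT cells Cdh3 was 4.01-fold lower with RA than with LIF (3.49 to 4.62), whereas within EGFP cells RA over LIF was 1.56-fold (1.40 to 1.74). For RA against LIF the log2 fold change was -0.50 (SE 0.57, adjusted p = 0.493), with 0.13 without WT RA and -1.41 without EGFP RA (adjusted p = 0.0204). Against no-LIF it was -0.61 (SE 0.59, adjusted p = 0.425), with 0.09 without WT RA and -1.46 without EGFP RA (adjusted p = 0.019). R-cadherin (Cdh4), a cadherin of retina and brain and the remaining type I gene tested, ranged from 0.246 CPM (WT LIF) to 2.38 CPM (L122A RA) and passed in no comparison; AL669921.1 overlaps it on the other strand, with 91 counts over the 9 libraries against 250 for Cdh4.

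**Figure D2:**
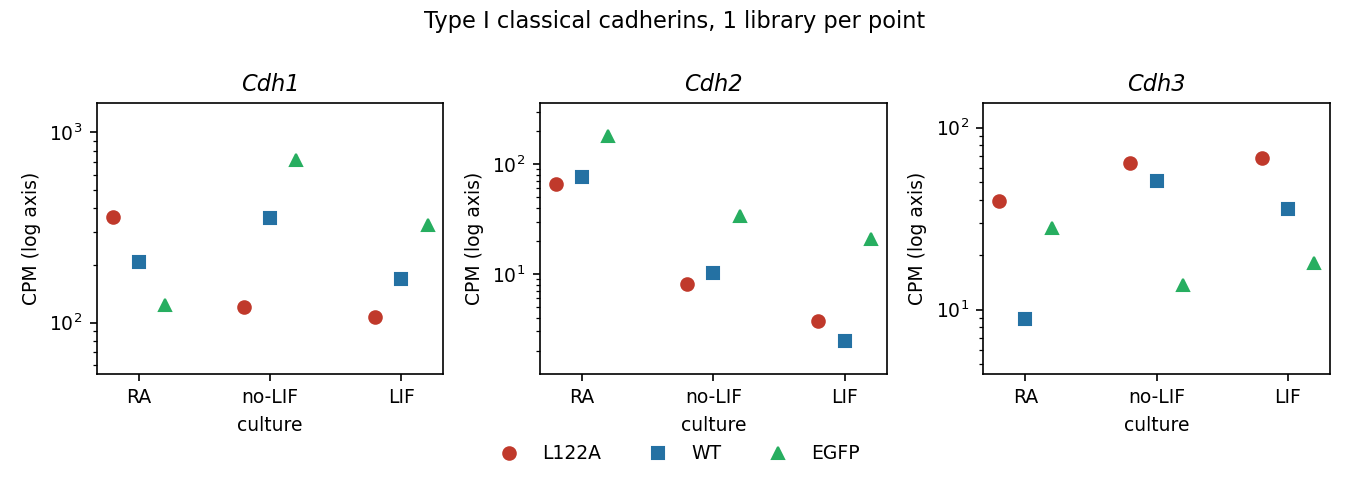
Level of Cdh1, Cdh2 and Cdh3 in CPM (vertical axes, log scale) by culture, 1 library per point, with L122A as circles, WT as squares and EGFP as triangles. Cdh2 is higher in the 3 RA libraries (65.6 to 179.6 CPM) than in the other 6 (2.46 to 33.9 CPM), and the order of the transfectants for Cdh1 with RA is the reverse of that in the other cultures.

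Levels of different genes were compared per length, on the authors' FPKM (fragments scaled to gene length and library size). Cdh1 was at 98.4, 55.9 and 30.4 FPKM in the L122A, WT and EGFP RA libraries, against 21.5, 73.4 and 151.9 FPKM without LIF and 21.6, 30.3 and 74.7 FPKM with LIF. Cdh1 supplied 76.9%, 65.2% and 25.8% of the summed FPKM of the 18 classical cadherins in the L122A, WT and EGFP RA libraries, against 58.2%, 82.6% and 92.2% without LIF and 55.2%, 77.2% and 88.6% with LIF. In EGFP RA, Cdh11 supplied 36.5% and Cdh2 21.1%, so Cdh1 was not the largest contributor there. Cdh3 took 9.79%, 3.18% and 6.71% of the sum with RA, against 35.4%, 13.6% and 2.03% without LIF and 40.1%, 18.7% and 5.59% with LIF in the L122A, WT and EGFP libraries. The ratio of Cdh2 to Cdh1 FPKM was 0.104, 0.207 and 0.820 in the L122A, WT and EGFP RA libraries, against 0.00825 (WT LIF) to 0.0377 (L122A no-LIF) in the others. These shares have no replicate and no test.

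**Figure D3:**
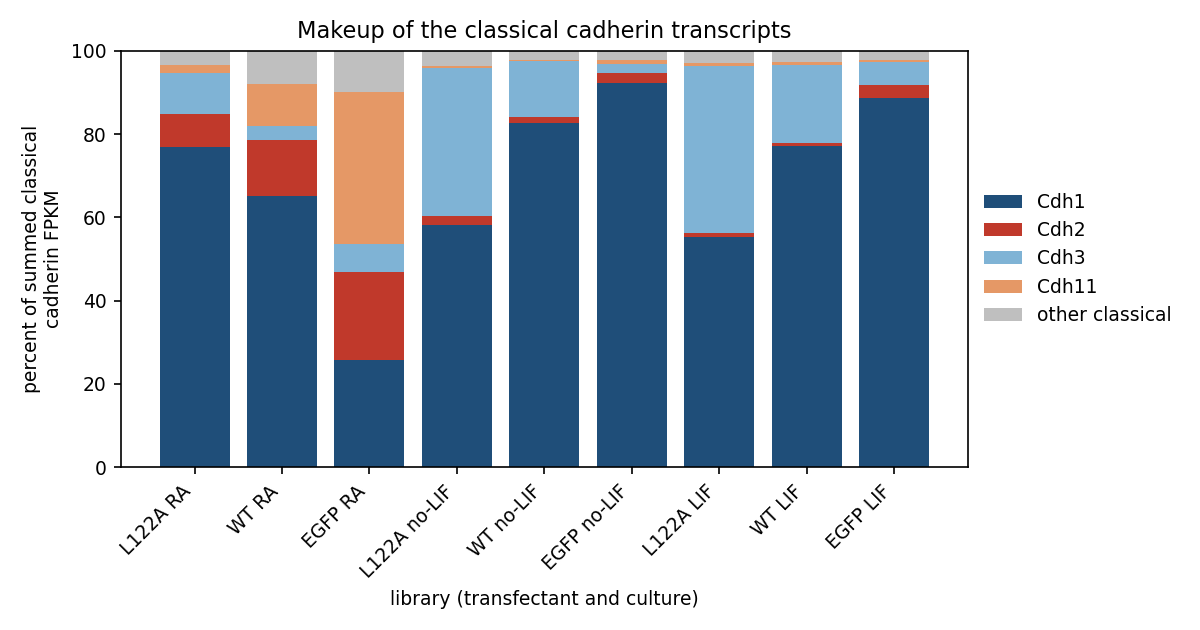
Share of each classical cadherin in the summed FPKM of the 18 classical genes (vertical axis, percent) in each library (horizontal axis), with genes other than Cdh1, Cdh2, Cdh3 and Cdh11 in grey. Cdh1 makes up 25.8% of the EGFP RA bar and 92.2% of the EGFP no-LIF bar, and Cdh3 makes up 35.4% and 40.1% of the L122A no-LIF and LIF bars.

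Among type II cadherins, Cdh11 (OB-cadherin, ENSMUSG00000031673, mm9 chromosome 8, 105156894 to 105309011, minus strand), a cadherin of mesenchyme and osteoblasts, rose with RA. Cdh11 stood at 8.10, 30.1 and 162 CPM in the L122A, WT and EGFP RA libraries, against 0.759, 0.898 and 6.71 CPM in the no-LIF libraries and 1.22, 1.48 and 1.07 CPM in the LIF libraries. With LIF all 3 transfectants lay below 1.5 CPM, and with RA they were spread in the order L122A, WT, EGFP. RA over LIF was 6.65-fold in L122A (4.48 to 10.3), 20.4-fold in WT (14.2 to 30.4) and 151.6-fold in EGFP (107 to 222). The log2 fold change was 4.69 against LIF (SE 0.82, adjusted p = 0.00288) and 4.40 against no-LIF (SE 0.77, adjusted p = 0.00327). Both calls held in every leave-one-out fit, with values against LIF of 5.37 without L122A RA, 5.52 without L122A LIF and 3.64 without EGFP LIF, and against no-LIF of 3.62 without EGFP RA. The response of the Nanog class minus that of EGFP was -3.41 for RA minus LIF (SE 1.06, unadjusted p = 0.0142, adjusted p = 0.359); DESeq2 called it (-3.43, adjusted p = 0.0286), as did edgeR without WT RA (-4.65, adjusted p = 0.00414).

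Cdh6 (K-cadherin, ENSMUSG00000039385, mm9 chromosome 15, 12963954 to 13103394, minus strand), a cadherin of kidney and neural crest, rose with RA. Cdh6 stood at 1.29, 5.44 and 19.8 CPM in the L122A, WT and EGFP RA libraries, against 0.101, 0.0408 and 0.267 CPM in the no-LIF libraries and 0, 0.443 and 0.334 CPM in the LIF libraries. The RA libraries were the highest 3, in the same order of transfectants as for Cdh11. For Cdh6 the fit gave a log2 fold change of 4.85 against LIF (SE 0.80, adjusted p = 0.00195) and 5.74 against no-LIF (SE 0.87, adjusted p = 0.00166). The first was 4.26 without EGFP RA, 5.98 without WT LIF and 4.15 without EGFP LIF, and the second 5.02 without EGFP RA, 6.35 without L122A no-LIF and 5.13 without WT no-LIF, all still called.

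The other 3 type II genes tested stayed under 6 CPM. Cdh24 ranged from 0.702 CPM (EGFP LIF) to 5.03 CPM (WT RA) and rose with RA against LIF (log2 fold change 1.99, SE 0.48, adjusted p = 0.0102; lost without WT RA, 1.66, or WT LIF, 1.88). Against no-LIF Cdh24 had 1.35 (SE 0.47, adjusted p = 0.0449), a call that 7 of 9 leave-one-out fits lost (all but those without L122A RA or EGFP LIF, with values of 1.03 to 1.49). Cdh10, a cadherin of brain, ranged from 0 (L122A LIF) to 4.31 CPM (EGFP no-LIF) and rose against LIF (2.62, SE 0.83, adjusted p = 0.0294). That call was lost without WT RA (1.84), WT LIF (1.96) or L122A LIF (2.44), and the value was 4.31 without EGFP LIF. Against no-LIF, Cdh10 was not higher with RA (-0.28, SE 0.72, adjusted p = 0.772). For no-LIF against LIF it had 2.90 (SE 0.83, adjusted p = 0.347). Cdh9, also a brain cadherin, ranged from 0.0933 CPM (EGFP RA) to 2.02 CPM (EGFP no-LIF) and passed in no comparison fitted on all libraries. Its log2 fold change against no-LIF was -1.30 (SE 1.24, adjusted p = 0.42), called at -3.67 without L122A RA (adjusted p = 0.0181), and its response difference for RA minus LIF was called without a filter on low counts (5.47, adjusted p = 0.015).

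Outside the classical groups, Cdh23, a cadherin of the hair-cell tip link, ranged from 0 in WT and EGFP no-LIF to 5.13 CPM in L122A RA. In edgeR on all libraries Cdh23 missed the threshold for L122A against EGFP (log2 fold change 4.80, SE 1.35, adjusted p = 0.102) and for RA against no-LIF (2.70, SE 1.21, adjusted p = 0.1). DESeq2 called both (5.40, adjusted p = 0.000677, and 3.12, adjusted p = 0.0319), as did edgeR without L122A LIF (6.34, adjusted p = 0.0467, and 3.28, adjusted p = 0.0387), and the second was also called without L122A no-LIF (7.77, adjusted p = 0.0391) and with only the levels compared (3.30, adjusted p = 0.0433). Cdh23 overlaps the gene 4632428N05Rik on the other strand, which had 850 counts over the 9 libraries against 318 for Cdh23, and since the handling of strand is not given in the sources used here, reads of the pair may not be separated.

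Delta-1 protocadherins include Pcdh7 (ENSMUSG00000029108, mm9 chromosome 5, 58109338 to 58520590, plus strand). Pcdh7 stood at 0.841, 3.94 and 49.0 CPM in the L122A, WT and EGFP RA libraries, against 0, 0.0408 and 3.93 CPM in the no-LIF libraries and 0, 0 and 0.502 CPM in the LIF libraries. EGFP exceeded L122A and WT in each culture, and the 3 libraries at 0 were all without RA. The log2 fold change of Pcdh7 was 7.22 against LIF (SE 0.75, adjusted p = 0.000412), which was 9.41 without EGFP RA and 8.69 without EGFP LIF. Against no-LIF it was 4.55 (SE 0.60, adjusted p = 0.00104), with 3.96 without WT RA, 6.49 without EGFP RA and 6.50 without EGFP no-LIF. With 2 of the 3 LIF libraries at 0, the size of the first depends on the prior count of the fit; from the counts, WT RA over WT LIF was at least 26.7-fold, taking a floor of 3 counts per library.

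Pcdh1 (ENSMUSG00000051375, mm9 chromosome 18, 38349198 to 38369416, minus strand), a protocadherin of airway epithelium, rose with RA against LIF. Pcdh1 stood at 2.24, 8.91 and 37.7 CPM in the L122A, WT and EGFP RA libraries, against 1.82, 6.65 and 19.4 CPM in the no-LIF libraries and 0.722, 2.02 and 5.42 CPM in the LIF libraries. In each of the 3 cultures the order was L122A, then WT, then EGFP from low to high. Pcdh1 had a fitted log2 difference of 2.24 against LIF (SE 0.30, adjusted p = 0.000866), called in every leave-one-out fit, and 0.59 against no-LIF (SE 0.28, adjusted p = 0.115). Total-count scaling called the second (0.96, adjusted p = 0.0206), with the median of all genes at 0.43 there.

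Of the delta-2 protocadherins, Pcdh18 alone passed 10 CPM in any library (ENSMUSG00000037892, mm9 chromosome 3, 49547242 to 49561203, minus strand). Pcdh18 stood at 0.785, 2.94 and 25.0 CPM in the L122A, WT and EGFP RA libraries, against 0.202, 0.326 and 18.6 CPM in the no-LIF libraries and 0, 0.0492 and 4.98 CPM in the LIF libraries. The transfectant separated these libraries more than the culture did, since every EGFP library lay above every L122A and WT library. For Pcdh18 the fit gave 3.82 on the log2 scale against LIF (SE 0.73, adjusted p = 0.00357), with 3.10 without WT RA, 5.10 without EGFP RA and 5.66 without EGFP LIF, all called. Against no-LIF it was 1.84 (SE 0.65, adjusted p = 0.0461), a call lost in 7 of 9 leave-one-out fits, all but those without EGFP RA (2.85) or EGFP LIF; it was 1.02 without WT RA.

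Pcdh17, Pcdh19 and Pcdh8, all delta-2 genes expressed in brain or early mesoderm, had at most 5.13 CPM. Pcdh17 ranged from 0.0451 CPM (L122A LIF) to 5.13 CPM (EGFP RA), with log2 fold changes of 2.50 against LIF (SE 0.74, adjusted p = 0.0225) and 2.52 against no-LIF (SE 0.72, adjusted p = 0.0215). The first call was lost without L122A RA (2.28), EGFP RA (2.33), L122A LIF (2.20) or EGFP LIF (1.81), and was 3.71 without WT LIF. The second was lost without L122A RA or EGFP RA (2.29 each), L122A no-LIF (2.54) or WT no-LIF (2.09), and was 3.17 without EGFP no-LIF.

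Pcdh19, on the X chromosome, stood at 4.15, 4.72 and 4.29 CPM in the L122A, WT and EGFP RA libraries, against 0.202 to 2.71 CPM in the 6 others, so the RA libraries were alike. Its log2 fold changes were 2.67 against LIF (SE 0.67, adjusted p = 0.012) and 2.63 against no-LIF (SE 0.69, adjusted p = 0.0157). The first call was lost without L122A RA (2.04), WT RA (2.46) or WT LIF (2.75) and was 3.32 without EGFP RA. The second was lost without L122A RA (2.07), WT RA (2.44), L122A no-LIF (2.10) or WT no-LIF (2.34), and was 3.41 without EGFP RA and 3.49 without EGFP no-LIF.

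Pcdh8 (paraxial protocadherin), a gene of paraxial mesoderm, had the opposite order of transfectants, at 4.29, 1.0 and 0.467 CPM in the L122A, WT and EGFP RA libraries and at 1.77 CPM in L122A no-LIF, against 0 to 0.1 CPM in the other 5. It rose against LIF (4.68, SE 1.20, adjusted p = 0.0131), lost without L122A LIF (3.25) or WT LIF (4.35), with 4.06 without WT RA, 5.27 without EGFP RA and 7.07 without EGFP LIF; against no-LIF it had 2.24 (SE 0.93, adjusted p = 0.0815). AC151973.1 overlaps Pcdh8 on the other strand, with 22 counts against 242. Pcdh21, named Cdhr1 in a newer annotation and known from photoreceptors, ranged from 1.37 CPM (EGFP no-LIF) to 4.01 CPM (EGFP RA) and passed in no comparison.

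**Figure D4:**
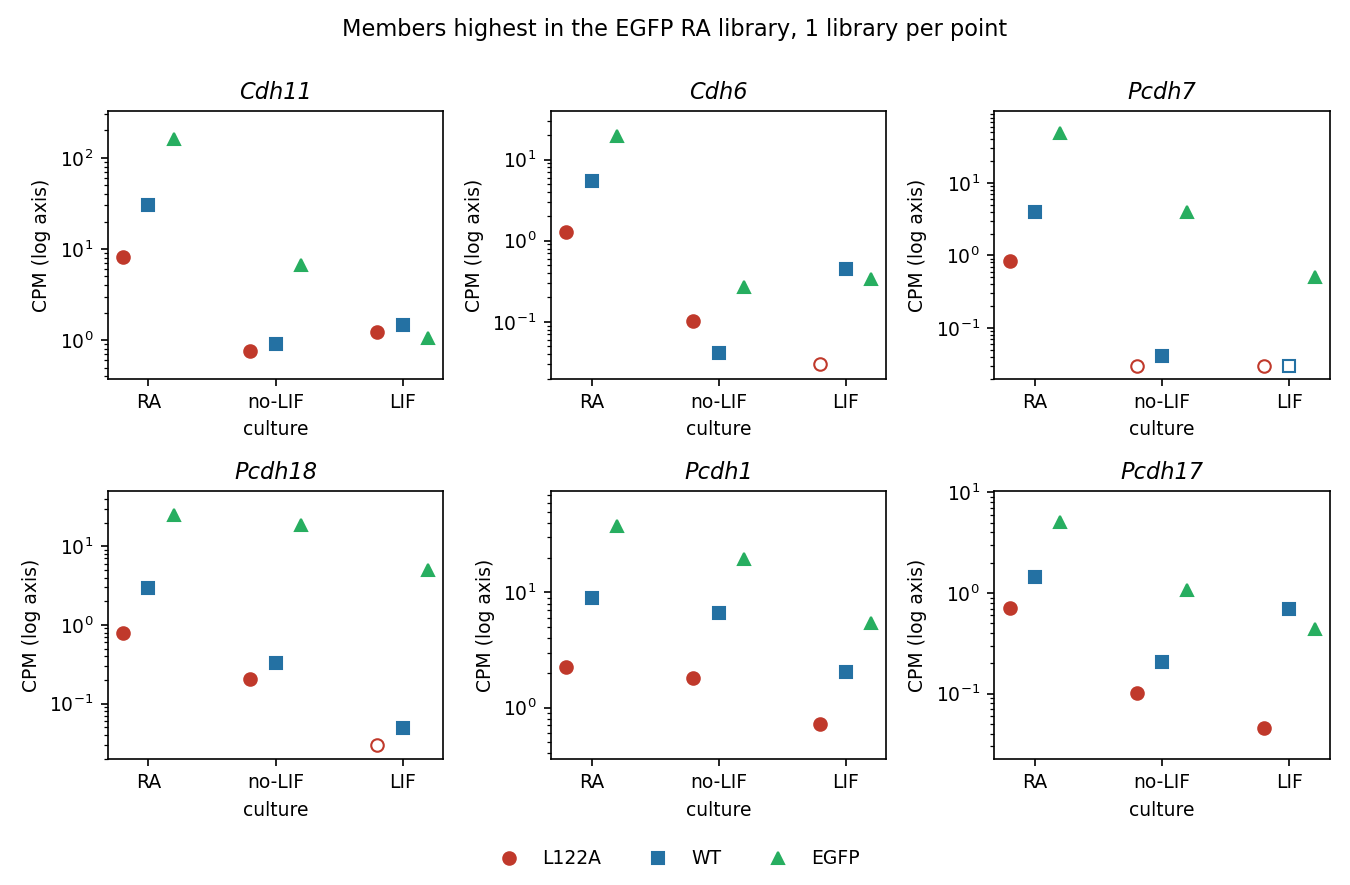
Level of 6 genes whose highest library was EGFP RA, in CPM (vertical axes, log scale), by culture, 1 library per point, with L122A as circles, WT as squares and EGFP as triangles; open symbols at the foot of an axis are libraries with 0 counts. EGFP is the highest RA point by this choice, and below it L122A lies under WT in all 6 panels. For Cdh11 the RA points run from 8.10 to 162 CPM.

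Genes past 2-fold with RA were also counted within each transfectant, without a test. Against LIF, 4 of 5 genes at 5 CPM or more were higher in L122A (Cdh1, Cdh11, Cdh2 and Cdh23; background 20.5%) and 0 lower (background 17.1%). In WT 5 of 7 were higher (Cdh11, Cdh2, Cdh24, Cdh6 and Pcdh1; background 24.7%) and Cdh3 was lower (background 22.4%). In EGFP 7 of 9 were higher (Cdh11, Cdh2, Cdh6, Pcdh1, Pcdh17, Pcdh18 and Pcdh7; background 23.7%) and Cdh1 was lower (background 16.5%). Cdh11 and Cdh2 were thus higher in every transfectant. Against no-LIF, 4 of 6 were higher in L122A (background 22.6%) with Cdh17 lower (background 20.7%), 4 of 7 in WT (background 20.8%) with Cdh3 lower (background 17.4%), and 6 of 9 in EGFP (background 22.4%) with Cdh1 lower (background 15.8%).

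The level of fibroblast or feeder markers was also highest in EGFP RA, while L122A RA lay below both EGFP libraries without RA. The summed CPM of Col1a1, Col1a2, Col3a1, Thy1, Pdgfrb and Postn was 21.6, 50.7 and 384.9 in the L122A, WT and EGFP RA libraries, against 7.95, 11.7 and 25.4 in the no-LIF libraries and 18.0, 8.46 and 27.3 in the LIF libraries. All 6 were at 1 CPM or more in EGFP RA, 3 in L122A RA and 5 in WT RA, and 3 to 5 in the libraries without RA, with Postn at 0 in L122A and WT no-LIF. Of the 5 that passed the filter, 4 were called higher with RA than with LIF (background 24.5% of all genes tested). Extraembryonic endoderm markers (Gata4, Gata6, Sox17, Sox7, Foxa2 and Dab2) summed to 57.4, 149.3 and 89.6 CPM with RA, against 4.66 to 23.99 CPM in the libraries without RA. All 6 were called higher with RA than with LIF (background 24.5%), and 3 without WT RA. In each library without RA, 2 or 3 of the 6 were at 1 CPM or more, so these calls are not independent of the filter. Neural markers (Nes, Pax6, Sox1, Mtap2, Tubb3 and Dcx) summed to 59.4, 86.1 and 219.6 CPM with RA and 35.9 to 94.6 CPM without RA. Of 4 tested 1, Nes, was called higher with RA than with LIF (2 without EGFP RA), a share near the background of 24.5%. Trophectoderm markers (Cdx2, Gata3, Eomes, Elf5, Krt7 and Krt8) summed to 49.7, 128.3 and 228.2 CPM in the L122A, WT and EGFP RA libraries, against 9.99 to 248.3 CPM without RA. Of 4 tested, 2 were called higher with RA than with LIF (background 24.5%), and 1 without WT RA, WT LIF or EGFP LIF. The part of these cell types in the levels of the cadherins was not tested.

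Promoters of 24 of the 37 genes matched an entry in RefSeq (GRCm38.p6). Of the 8 tested genes that reached 10 CPM in some library, Cdh6, Pcdh18 and Pcdh7 matched, and these 3 were called higher with RA and stood highest in EGFP RA. The 250 bases before each start are given 5′ to 3′ on the gene's strand, with capitals marking GGGCGG, the core of the GC box bound by Sp1-family factors. They lie at chr15:13173676-13173925 (Cdh6, minus strand), chr3:49757317-49757566 (Pcdh18, minus strand) and chr5:57717831-57718080 (Pcdh7, plus strand).
Cdh6: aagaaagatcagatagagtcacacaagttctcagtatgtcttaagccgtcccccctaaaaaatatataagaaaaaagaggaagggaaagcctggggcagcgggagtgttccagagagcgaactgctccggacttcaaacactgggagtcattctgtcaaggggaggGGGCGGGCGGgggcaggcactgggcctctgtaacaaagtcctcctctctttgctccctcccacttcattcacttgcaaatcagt
Pcdh18: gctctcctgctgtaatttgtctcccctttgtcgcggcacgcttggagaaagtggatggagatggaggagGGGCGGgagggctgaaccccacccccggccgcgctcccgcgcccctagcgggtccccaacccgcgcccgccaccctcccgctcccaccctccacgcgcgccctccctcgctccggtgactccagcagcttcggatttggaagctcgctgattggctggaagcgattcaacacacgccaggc
Pcdh7: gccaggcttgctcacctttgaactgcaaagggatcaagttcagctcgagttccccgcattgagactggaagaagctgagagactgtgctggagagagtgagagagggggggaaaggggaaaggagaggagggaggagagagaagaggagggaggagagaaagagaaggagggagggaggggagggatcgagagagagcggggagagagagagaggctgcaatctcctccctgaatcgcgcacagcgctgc
Besides GGGCGG, 2 motifs were searched on both strands: CACCTG, an E-box bound by Snail and Zeb repressors, and AGGTCA, a core site of nuclear receptors, retinoic acid receptors among them. GGGCGG was found at 2 overlapping positions in the Cdh6 promoter, once for Pcdh18 and not for Pcdh7, and neither other motif was in the 3 windows. Over the 24 matched genes, 9 held GGGCGG, 3 CACCTG and 2 AGGTCA, against 32.7%, 17.2% and 14.0% of 32851 promoters of the same length. A match describes letters in the window and is not a binding site.

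The next comparison set the libraries labelled L122A or WT against those labelled EGFP, over all 3 cultures; in the no-LIF and LIF cultures Nanog itself was lower in L122A and WT. In L122A 5 of the 17 genes were lower (background 1.99% of all genes tested) and 0 were higher (background 0.893%); 1 was called without L122A no-LIF, and 3 without L122A RA or EGFP no-LIF. One gene was called higher without EGFP RA (Cdh3, 2.33, adjusted p = 0.0207) and 1 without L122A LIF (Cdh23, 6.34, adjusted p = 0.0467). In WT 2 were lower (background 0.286%) and 0 were higher (background 0.0357%); 0 were called without WT RA, WT no-LIF, WT LIF or EGFP no-LIF, 1 without L122A no-LIF or L122A LIF, and 5 without EGFP LIF. The median log2 fold change over the 17 was -1.85 for L122A and -1.15 for WT, against 0.01 and 0.00 over all genes tested. Of the genes called lower, Pcdh7, Pcdh18 and Cdh10 needed EGFP libraries to meet the filter of 3 libraries. They thus passed it through the group in which they were high. These calls and both medians are therefore not independent of the filter. Both comparisons use the same EGFP libraries. A property of the EGFP cells that has nothing to do with Nanog would recur in each culture too, and the design does not separate it from the constructs.

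Markers of other cell types moved in the same comparison. As background, 1.99% of all genes tested were lower in L122A than in EGFP and 0.893% higher, with a median log2 fold change of 0.01. In WT 0.286% were lower and 0.0357% higher, with a median of 0.00. Fibroblast or feeder markers were lower in L122A than in EGFP for 3 of 5 tested (median -3.29; 0 without L122A no-LIF, 1 without L122A RA) and in WT for 1 of 5, Col3a1 (median -2.88; 2 without L122A RA or L122A LIF, and 0 without WT RA, WT no-LIF, WT LIF, EGFP RA or EGFP no-LIF). Of the 4 trophectoderm markers tested, 2 were lower in L122A (median -2.06; 1 without WT RA, EGFP RA or EGFP LIF, and 0 without L122A RA, L122A no-LIF, WT no-LIF, WT LIF or EGFP no-LIF) and 0 in WT (1 without EGFP RA). Of the 4 neural markers tested, Nes was lower in L122A (a call lost without L122A RA, L122A no-LIF or WT LIF) and 0 were lower in WT (1 without EGFP RA or EGFP no-LIF). No ES cell marker was called, with medians of 2.69 in L122A and 1.64 in WT. The part of these cell types in the differences between transfectants was not tested.

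Of the 5 genes lower in L122A, 3 were delta protocadherins, and both genes lower in WT were among these. In L122A against EGFP the log2 fold change was -6.51 for Pcdh7 (SE 0.72, adjusted p = 0.00711), -6.26 for Pcdh18 (SE 0.75, adjusted p = 0.00841) and -3.51 for Pcdh1 (SE 0.31, adjusted p = 0.00668). The classical genes Cdh2 (-2.03, SE 0.32, adjusted p = 0.0204) and Cdh10 (-4.48, SE 0.87, adjusted p = 0.0358) were also lower. Pcdh7 had 0 counts in L122A no-LIF and L122A LIF, and Pcdh18 and Cdh10 had 0 in L122A LIF. The sizes for these genes thus depend on the prior count of the fit. Over the alternative settings Pcdh7 ranged from -8.69 to -1.31 and Pcdh18 from -7.39 to -1.87. In WT against EGFP, Pcdh7 had -4.50 (SE 0.61, adjusted p = 0.0313) and Pcdh18 -4.76 (SE 0.69, adjusted p = 0.0414). Cdh2 and Pcdh1 had -1.96 (SE 0.32) and -1.71 (SE 0.28) there, with an adjusted p of 0.059 each, and DESeq2 called both (-1.99, adjusted p = 5.45e-07, and -1.73, adjusted p = 2.06e-05). Cdh11 had -2.81 in L122A (SE 0.80, adjusted p = 0.11) and -1.96 in WT (SE 0.73, adjusted p = 0.346), and Cdh6 -3.37 in L122A (SE 0.87, adjusted p = 0.0815).

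The Pcdh1 call in L122A held in every leave-one-out fit. Those of Pcdh7 and Pcdh18 in L122A were lost without L122A no-LIF (-6.31 and -6.30); Pcdh7 had -8.49 without L122A RA and -8.69 without EGFP RA, and Pcdh18 -7.39 without EGFP RA. Cdh2 lost its call without L122A RA (-2.12), L122A no-LIF (-1.96), EGFP no-LIF (-2.09) or L122A LIF (-2.02), and Cdh10 lost it without L122A RA (-3.91), L122A no-LIF (-5.64), WT no-LIF (-4.56), EGFP no-LIF (-4.83), L122A LIF (-4.24) or WT LIF (-4.30). In WT, the calls of both Pcdh7 and Pcdh18 were lost without WT RA (-6.33 and -5.82), WT no-LIF (-3.97 and -4.25), EGFP no-LIF (-3.81 and -4.30) or WT LIF (-4.42 and -4.45). Pcdh7 also lost its call without L122A LIF (-4.49), and Pcdh18 without L122A no-LIF (-4.76). Without EGFP RA, Pcdh7 and Pcdh18 had -6.47 and -5.85 and remained called.

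**Figure D5:**
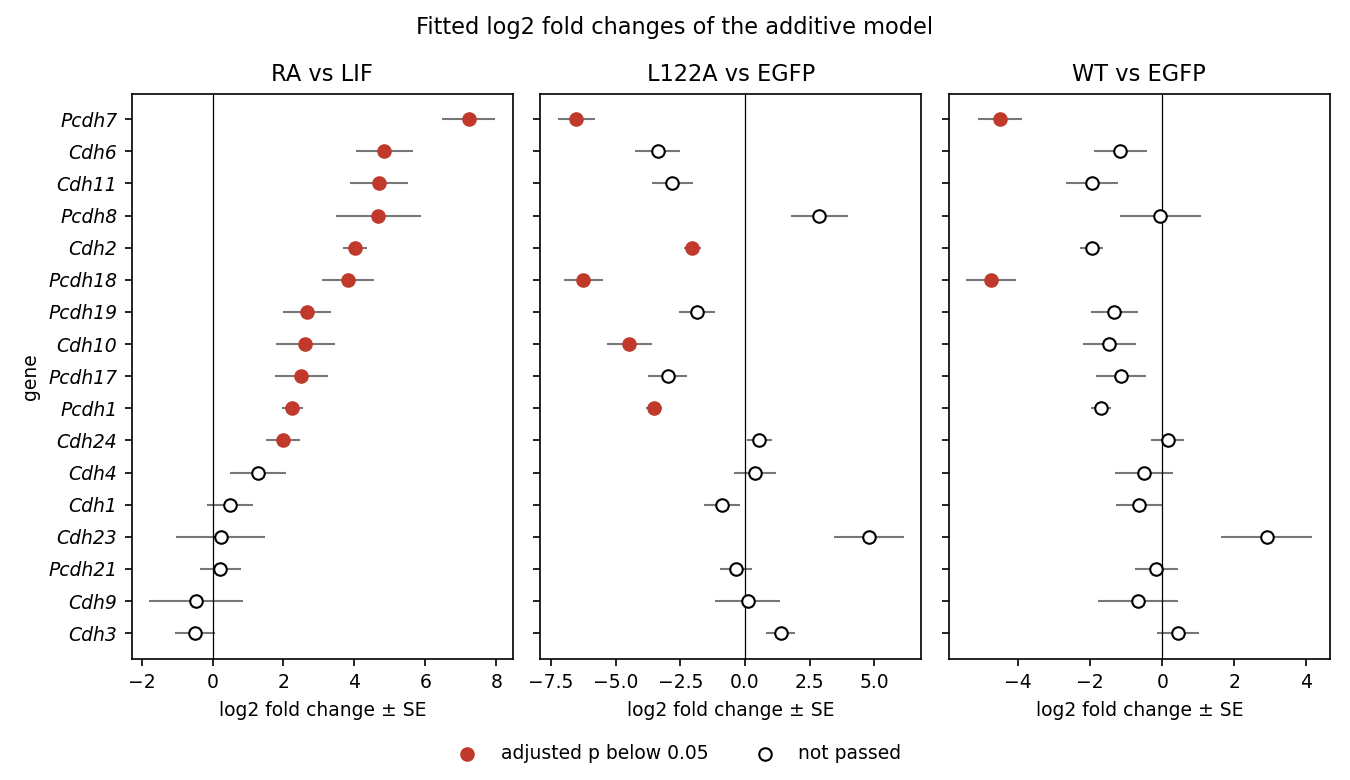
Fitted log2 fold change ± SE of the additive model (horizontal axes) for the 17 tested genes (rows) for RA against LIF, L122A against EGFP and WT against EGFP, with filled points for an adjusted p below 0.05. With RA 11 genes are called, all higher; against EGFP 5 genes are called in L122A and 2 in WT, all lower.

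Libraries of the same culture were also set side by side without a test, counting a gene as past 2-fold if the higher of the pair reached 5 CPM. With RA, 10 genes met this minimum for L122A over EGFP, of which 7 were lower (Cdh11, Cdh2, Cdh6, Pcdh1, Pcdh17, Pcdh18 and Pcdh7; background 11.4%) and 2 higher (Cdh1 and Cdh23; background 7.97%). For WT RA over EGFP RA, 8 of 10 were lower, the same 7 and Cdh3 (background 7%), and 0 were higher (background 4.31%). The ratios were graded: Pcdh7 was 58.2-fold lower in L122A RA than in EGFP RA (95% Poisson interval 40.6 to 86.5) and 12.4-fold lower in WT RA (10.3 to 15.0). Cdh11 was 20.01-fold lower in L122A RA (17.8 to 22.6) and 5.38-fold lower in WT RA (5.02 to 5.77), whereas Cdh1 was 2.89-fold higher in L122A RA (2.79 to 3.00) and 1.68-fold higher in WT RA (1.62 to 1.75).

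Without LIF, 5 genes were lower in L122A than in EGFP (Cdh1, Cdh11, Cdh2, Pcdh1 and Pcdh18; background 10.5%) and 4 in WT than in EGFP (the same without Cdh1; background 8.21%). Cdh17 was higher in L122A, and Cdh3 in both, 4.69-fold in L122A (4.17 to 5.29; background 9.59%) and 3.74-fold in WT (3.32 to 4.21; background 7.87%). With LIF, Cdh1, Cdh2 and Pcdh1 were lower (background 5.22%) and Cdh3 higher (background 4.35%) in L122A than in EGFP, and Cdh2 and Pcdh1 were lower in WT than in EGFP (background 5.13%) with 0 higher (background 5.11%). In trophectoderm markers the EGFP no-LIF library also stood apart from the other libraries without RA, at a sum of 248.3 CPM against 12.1 in L122A no-LIF, 11.8 in WT no-LIF and 9.99 to 53.2 with LIF. Their part in these differences was not tested.

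Whether L122A differed from WT was the last comparison of the transfectants. No cadherin was called by edgeR (background 0% in each direction), also in each leave-one-out fit, although 6 of the 17 had an unadjusted p below 0.05, as did 614 of all genes tested. The log2 fold change of Pcdh1 was -1.80 (SE 0.30, adjusted p = 0.674), and DESeq2 called it (-1.82, adjusted p = 0.00093). The order L122A below WT below EGFP held for 9 of the 17 genes with RA, 11 without LIF and 7 with LIF, against 26.6%, 19.8% and 17.4% of all genes tested. With RA, L122A over WT was past 2-fold lower for Cdh11, Cdh6 and Pcdh1 (background 3.83%) and higher for Cdh23 and Cdh3 (background 3.45%), Cdh3 by 4.47-fold (3.94 to 5.10). Without LIF, Cdh1 and Pcdh1 were lower (background 4.17%) and Cdh17 higher (background 3.91%) in L122A than in WT. With LIF, 0 of the 2 genes at 5 CPM or more were past 2-fold in either direction (background 1.79% higher and 1.75% lower).

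LIF withdrawal alone called 0 of the 17 genes by edgeR (background 0.0143% higher and 0.0572% lower), with 5 at an unadjusted p below 0.05, all higher. DESeq2 called Cdh10, Cdh2 and Pcdh1 higher (3.11, 1.23 and 1.68 on the log2 scale). Within EGFP cells no-LIF over LIF was 2.18-fold for Cdh1 (2.12 to 2.23), 6.27-fold for Cdh11 (4.28 to 9.45), 3.59-fold for Pcdh1 (3.00 to 4.31) and 3.73-fold for Pcdh18 (3.10 to 4.51). These 4 of 6 were past 2-fold higher in EGFP (background 7.44%), with 0 lower (background 6.33%). In WT, Cdh1, Cdh2 and Pcdh1 were higher (background 5.54%) and 0 lower (background 4.55%), and in L122A, Cdh17 and Cdh2 were higher (background 2.9%) and 0 lower (background 3.09%).

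Of the differences in response between the Nanog class and EGFP, 0 of 17 passed in edgeR for RA minus LIF (background 0.00714% higher and 0% lower), for RA minus no-LIF (0.0357% and 0.00714%) or for no-LIF minus LIF (0% in each direction). At an unadjusted p below 0.05 there were 5, 4 and 1 of the 17, against 1554, 1291 and 1117 of all genes tested. DESeq2 called 1 gene in the first (Cdh11), 1 in the second (Cdh1) and 0 in the third.

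The 20 genes below the filter each had at most 6.58 CPM. Cdh17 (LI-cadherin), of liver and intestine, was the highest, at 0.112, 6.58 and 3.25 CPM in the L122A RA, no-LIF and LIF libraries, against 0 to 0.443 CPM in the 6 others. L122A no-LIF was 26.9-fold above WT no-LIF (12.0 to 74.6, with a background of 3.91%). In edgeR without a filter on low counts, Cdh17 was called lower with RA than with LIF (-4.19, adjusted p = 0.0177) and than without LIF (-4.89, adjusted p = 0.00773). That fit also called Cdh17 higher in L122A than in EGFP (5.32, adjusted p = 0.0207). Cdh5 (VE-cadherin), of endothelium, had 67, 60 and 1 counts in the L122A, WT and EGFP RA libraries (1.88, 1.88 and 0.0311 CPM), and at most 18 counts in the others. The endothelial markers (Kdr, Tek, Tie1, Emcn, Cldn5 and Erg) summed to 4.82, 5.16 and 8.77 CPM in the same RA libraries and to 3.44 to 8.56 CPM elsewhere.

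The highest level was 1.74 CPM for Pcdh9, 1.26 CPM for Pcdh12, 1.12 CPM for Cdh8, 1.03 CPM for Pcdh10, 0.877 CPM for Cdh18, 0.841 CPM for Cdh13, 0.810 CPM for Pcdh15 and 0.763 CPM for Cdh15. It was 0.640 CPM for Cdh20, 0.496 CPM for Cdh12, 0.467 CPM for Pcdh20 and 0.304 CPM for Cdh16. Cdh29, Cdh22, Pcdh24, Cdh7, Cdh19 and Cdh26 reached 0.124 to 0.249 CPM. Cdh15 overlaps Usp10 on the same strand, which had 29385 counts over the 9 libraries against 82 for Cdh15, and Cdh29 overlaps Uba7 and 6230427J02Rik, so reads counted for these 2 genes may belong to their neighbours.

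Among partners of the cadherins at the adherens junction, 14 of 16 catenin, nectin and linker genes were tested. With RA, 10 were higher than with LIF (background 24.5%) and 0 lower (background 23.8%; median log2 fold change 1.02 against 0.01 over all genes); without WT RA 7 were called. Ctnnd2, the neural relative of p120-catenin, stood at 7.01, 8.29 and 14.5 CPM in the L122A, WT and EGFP RA libraries, against 0.246 to 3.70 CPM in the others, and rose with RA (3.67, SE 0.53, adjusted p = 0.00117). Vcl (vinculin), which links junctions to actin, stood at 112, 114 and 269.9 CPM in the L122A, WT and EGFP RA libraries, against 12.0 to 80.9 CPM in the others, and rose likewise (3.07, SE 0.24, adjusted p = 0.000212). Against no-LIF 9 of the 14 were higher (background 22.6%) and 0 lower (background 21.9%; 6 higher without L122A RA, and 4 without WT RA or L122A no-LIF).

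Vcl was also lower in L122A than in EGFP (-1.58, SE 0.23, adjusted p = 0.0147; lost without L122A no-LIF or EGFP no-LIF) and lower in WT than in EGFP (-1.45, SE 0.22, adjusted p = 0.0474; lost without WT RA, WT no-LIF, EGFP no-LIF, L122A LIF or WT LIF). Mllt4, which encodes afadin, a linker of nectins to actin, was lower in L122A (-1.09, SE 0.19, adjusted p = 0.0287); without any 1 of 6 libraries this call was lost.

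Of 8 transcription factor genes known to repress Cdh1 or to act in the epithelial to mesenchymal transition, 7 were higher with RA than with LIF (background 24.5%) and 1 lower (background 23.8%; median 2.67). Prrx1 stood at 4.91, 4.66 and 14.9 CPM in the L122A, WT and EGFP RA libraries, against 0 to 2.44 CPM in the others (log2 fold change 4.91, SE 1.07, adjusted p = 0.00658), and Twist2 at 0.981, 1.44 and 6.47 CPM, against 0 to 1.17 CPM (3.65, SE 0.88, adjusted p = 0.0101). Snai3 was lower, at 0.421, 0 and 0.715 CPM in the L122A, WT and EGFP RA libraries, against 1.67 to 8.48 CPM in the others (-4.03, SE 0.97, adjusted p = 0.0101). Against no-LIF 7 were higher (background 22.6%) and 1 lower (background 21.9%; 0 lower without L122A RA, WT no-LIF, WT LIF or EGFP no-LIF), and in L122A against EGFP Zeb2 was lower (-2.10, SE 0.45, adjusted p = 0.05, just under the threshold; lost without 7 of the 9 libraries).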

How the data were processed

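RNA of 9 libraries of transfected RF8 ES cells was sequenced and, per the submitters' processing notes, aligned with TopHat2 2.0.11 to mm9; for the counting program and its strand setting, the sources used here give nothing. The deposited table holds a raw count of reads per gene, not normalized, and FPKM, normalized by the authors per the file headers; FPKM matched count over length and total count within 1% for 100% of genes above 5 FPKM in every library. Coordinates are those of the file. The columns were matched to the samples by name, L122 being taken as L122A, and the LIF columns by elimination.

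Testing was limited to the 13996 genes that reached 1 CPM in 3 or more libraries, and used edgeR 4.0.16 in R 4.3.3 (TMM scaling on these genes, factors 0.810 to 1.25; quasi-likelihood, robust; Benjamini-Hochberg over all genes tested). The additive model of culture and transfectant over all 9 libraries had 4 residual degrees of freedom and a biological coefficient of variation of 0.325. Differences in response were tested on means of class (WT with L122A, and EGFP) by culture, with 3 residual degrees of freedom and a coefficient of 0.287. The SE was taken as the log2 fold change, without its sign, divided by the square root of F. CPM are scaled by TMM. Ratios of single libraries carry exact Poisson intervals (95%) for counting error alone; the 2-fold rule used a prior count of 2. Every tested gene is named; those with 10 CPM or more in some library get all 9 values. Of each list the 2 called genes with the largest rise and the 2 with the largest fall are named, and further called genes in the transfectant comparisons. The genes and lists were chosen with earlier results of these data known. Alternatives were RLE factors, total-count scaling, no filter, DESeq2 1.42.0, limma 3.58.1 on log2(FPKM + 1), only the levels compared, the model without its second factor, and the omission of every library in turn. Ratios of single libraries were repeated with RLE factors, a 1 CPM minimum and a prior count of 0.5. Figures used matplotlib 3.10.9.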

Additional observations from a re-analysis of the deposited data

How the results depend on the processing

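No paired analysis was possible by replicate number because the labels give none; cultures were compared within transfectants, and transfectants within cultures, by the additive model itself. Against 11 genes called for RA against LIF, 6 were called without the transfectant in the model, and leaving out 1 library gave 7 (without WT LIF) to 12 (without EGFP RA, where Cdh1 at 1.21 was called higher and Cdh3 at -1.41 lower). Against 8 for RA against no-LIF, limma called 5 and the fit without the transfectant 3, and leaving out 1 library gave 4 to 9. For no-LIF against LIF, DESeq2 called 3 in place of 0. For WT against EGFP (2), total-count scaling, limma and the fit without culture called 0 each, no filter 4 and DESeq2 5, and leaving out 1 library gave 0 to 5. For L122A against EGFP (5), DESeq2 called 9 (8 lower, and Cdh23 higher), limma 3 and the fit without culture 0, and leaving out 1 library gave 1 to 7. No filter gave 14 for RA against LIF (13 higher and 1 lower) and 8 for RA against no-LIF (7 higher and 1 lower). It gave 7 for L122A against EGFP (6 lower and 1 higher). The gene that went against the others was Cdh17 in each of these comparisons. For L122A against WT, DESeq2 called 1 in place of 0. For the differences in response (0 each), no filter gave 5 for RA minus LIF, 2 for RA minus no-LIF and 1 for no-LIF minus LIF, DESeq2 1, 1 and 0, and leaving out 1 library 0 to 1 for the first and for the second. Without a filter 492 of all genes were called higher and 192 lower for RA minus LIF, against 1 and 0. The cause of these changes was not tested.

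The sign of Cdh1 for RA against LIF turned without L122A RA (-0.62), and for RA against no-LIF with total-count scaling (0.02), without EGFP RA (0.36) and without EGFP no-LIF (0.04), while without L122A RA it was called lower (-1.42); that of Cdh3 turned without WT RA for RA against LIF (0.13) and against no-LIF (0.09), the second being called lower without EGFP RA (-1.46). Total-count scaling moved the median log2 fold change of all genes to 0.39 for RA against LIF and to 0.43 for RA against no-LIF, and the genes called there were above these medians.

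With a minimum of 1 CPM in the higher library, genes past 2-fold in either direction became 17 (L122A over EGFP), 15 (WT over EGFP) and 10 (L122A over WT) with RA, 16, 11 and 7 without LIF, and 10, 7 and 3 with LIF. Computed on CPM in place of FPKM, the share of Cdh1 in the classical cadherins was 74.2%, 61.1% and 23.7% in the L122A, WT and EGFP RA libraries, 60.8% and 83.8% in L122A and WT no-LIF, and 58.2% and 79.5% in L122A and WT LIF. With 1 library per combination, genes under about 5 CPM rest on few counts, and no spread between cultures of 1 kind could be measured.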

Other observations

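Cadherin-related genes outside the name rule were also tested. Of 16 other members of the superfamily (Fat, Dachsous, Celsr, calsyntenin and related genes), 12 were tested and 5 were higher with RA than with LIF (24.5% of all genes) and 2 lower (23.8% of all genes; median log2 fold change 0.86, against 0.01 over all genes); without EGFP LIF, EGFP RA or WT RA 0 were called lower, and without L122A RA or WT LIF 1. Pcdh11x, a delta-1 protocadherin whose symbol ends in a letter, stood at 0.140, 1.38 and 2.43 CPM in the L122A, WT and EGFP RA libraries, against 0 to 1.14 CPM in the others (6.36, SE 1.85, adjusted p = 0.0213; lost without WT RA, WT LIF or EGFP LIF). Clstn2, a calsyntenin of synapses, stood at 4.01, 3.41 and 2.80 CPM with RA, against 0 to 0.607 CPM (4.88, SE 1.04, adjusted p = 0.0058). Clstn2 thus met the filter through the RA libraries alone, so the 5 calls and the median of 0.86 are not independent of it. Fat2 (-3.23, SE 1.02, adjusted p = 0.0296) and Celsr3 (-1.66, SE 0.49, adjusted p = 0.0233), a planar polarity cadherin, were lower, and each lost its call without any 1 of 4 libraries. The giant cadherin Fat1 was lower in L122A than in EGFP (-1.12, SE 0.19, adjusted p = 0.0274), a call lost without any 1 of 5 libraries.

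Of 13 desmosome genes 6 were tested, and 2 were higher with RA than with LIF and 1 lower, shares near those of all genes (24.5% and 23.8%). Dsp, which encodes desmoplakin, stood at 57.8, 74.1 and 54.7 CPM in the L122A, WT and EGFP RA libraries, against 3.97 to 31.9 CPM in the others (3.39, SE 0.43, adjusted p = 0.000752), and Dsc2, a desmosomal cadherin, rose too (2.65, SE 0.51, adjusted p = 0.00373). Pkp3 (plakophilin) fell, at 3.31, 3.16 and 2.64 CPM with RA, against 3.17 to 9.29 CPM (-1.26, SE 0.30, adjusted p = 0.00869).

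Of 25 clustered protocadherins 3 were tested and all 3 were higher with RA than with LIF (24.5% of all genes were), with 2 called without EGFP LIF or L122A LIF, 1 without WT LIF and 0 without WT RA. At 1 CPM or more there were 3, 5 and 4 of the 25 in the L122A, WT and EGFP RA libraries, and 1 in each library without RA. The 3 calls are thus not independent of the filter. The log2 fold change was 3.25 for Pcdhb22 (SE 1.06, adjusted p = 0.0329) and 2.76 for Pcdhga2 (SE 0.81, adjusted p = 0.0217). Clustered protocadherins share exons or resemble each other closely, so reads may be split between them.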
